A study of Mus musculus with 40 samples.

Results

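The genes described here are CAR (Nr1i3), PXR (Nr1i2) and 8 nuclear receptors and partners that act beside them in liver: Rxra, Rxrb, Hnf4a, Nr0b2, Nr1h4, Ppara, Ppard and Ppargc1a. All probe sets carrying 1 of these 10 symbols in the platform annotation were taken, which gave 23 of the 45037 probe sets on the array, and all 10 genes were represented. One further probe set names Ppard together with another gene and was left unnamed. RNA came from the liver and the kidney of 20 male B6C3F1/Crl mice, the cross of C57BL/6 males with C3H/He females, which were 29 to 32 days old on delivery and rested for 5 days. For 28 days 10 of them drank water with 0.05% (w/v) phenobarbital (PB), and 10 control mice drank water without it. Each tissue of each animal was hybridised to 1 array, so liver control, liver PB, kidney control and kidney PB hold 10 animals each, and a liver and a kidney with the same donor number came from the same mouse. No transgene, deletion or tumor initiator was named for any group, and the kidney served as the tissue that PB does not target. Values are the authors' MAS5 signals, a linear intensity whose trimmed mean was set to 150 on each array.

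CAR and PXR are ligand-responsive transcription factors that hepatocytes use to sense drugs and other foreign compounds. CAR is held in the cytoplasm in a complex with chaperones, and PB releases it indirectly, by blocking a growth factor receptor signal that keeps it phosphorylated. Both receptors then bind DNA as dimers with RXR and switch on cytochrome P450 enzymes, conjugating enzymes and transporters. PB therefore acts on the location and activity of CAR, and the amount of receptor mRNA is a separate quantity, which is what the arrays measured. The other genes share the dimer partner, coactivators or target enhancers: HNF4-alpha maintains hepatocyte genes, FXR (Nr1h4) senses bile acids and induces the repressor SHP (Nr0b2), PPAR-alpha drives fatty acid oxidation in fasting, PPAR-delta (Ppard) is its broadly expressed relative, and PGC-1alpha (Ppargc1a) is a coactivator of mitochondrial and fasting genes.

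RefSeq promoter windows (build GRCm38.p6) were found for all 10 genes. The 4 printed in this paragraph belong to Nr1i3, Nr1i2 and Nr0b2, whose signals were higher in every liver than in any kidney, and to Ppard, which fell with PB in both tissues. They run 5′ to 3′ on the strand of the gene and end before the first annotated base of the gene. Capitals mark matches, on either strand, to the E-box CACGTG, which clock factors bind, or to the TATA box TATAAA. The windows are chr1:171213720-171213933 (plus strand) for Nr1i3, chr16:38294850-38295074 (minus strand) for Nr1i2, chr4:133553126-133553375 (plus strand) for Nr0b2 and chr17:28232504-28232753 (plus strand) for Ppard.
Nr1i3: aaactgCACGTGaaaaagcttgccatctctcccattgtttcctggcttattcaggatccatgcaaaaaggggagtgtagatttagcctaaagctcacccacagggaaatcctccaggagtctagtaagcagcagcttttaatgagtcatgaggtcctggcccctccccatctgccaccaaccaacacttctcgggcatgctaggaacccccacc
Nr1i2: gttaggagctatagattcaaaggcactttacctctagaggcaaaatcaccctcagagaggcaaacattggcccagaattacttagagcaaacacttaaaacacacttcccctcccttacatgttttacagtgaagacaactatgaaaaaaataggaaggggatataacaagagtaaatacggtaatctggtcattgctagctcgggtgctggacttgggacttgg
Nr0b2: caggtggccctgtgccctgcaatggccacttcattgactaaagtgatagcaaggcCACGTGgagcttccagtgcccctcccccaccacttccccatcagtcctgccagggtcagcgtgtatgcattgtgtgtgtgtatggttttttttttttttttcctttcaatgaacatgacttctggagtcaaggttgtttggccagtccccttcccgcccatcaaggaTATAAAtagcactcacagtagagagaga
Ppard: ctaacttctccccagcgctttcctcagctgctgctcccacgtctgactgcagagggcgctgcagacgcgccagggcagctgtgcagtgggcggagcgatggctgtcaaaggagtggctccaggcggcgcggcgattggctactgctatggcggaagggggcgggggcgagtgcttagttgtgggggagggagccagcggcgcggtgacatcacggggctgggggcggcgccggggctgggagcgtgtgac
The E-box stands once in the Nr1i3 stretch and once in the Nr0b2 stretch, where 4.80% and 6.02% of 32851 promoters hold it in a stretch of the same length and place. The TATA box, held by 12.4% of promoters in such a stretch, begins 28 bases before the Nr0b2 start. The nuclear receptor half-site AGGTCA and the D-boxes TTATGTAA and TTACGTAA, which DBP-type clock output factors bind, were also searched on both strands and none of the 4 stretches holds them. These matches are letters in a window and no binding was measured.

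The arrays followed their tissue labels. All 10 hepatocyte markers were higher in every liver than in every kidney, and 8 of the 9 nephron markers with a probe set ran the other way, the exception being Nphs1, a podocyte gene at the low end of the scale. Kap, a kidney androgen-regulated protein, reached 1230.2 in the liver of control animal 5 against at least 13557.2 in any kidney. The other nephron markers stayed at or below 163.6 in every liver, among them Slc34a1 (at least 7076.7 in any kidney) and Umod (highest liver 122.9, at least 9637.4 in any kidney). Leaving that array out changed no call on a receptor in the PB comparison.

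The first question was where each receptor is expressed without treatment. In control mice, 20 of the 21 receptor probe sets tested differed between liver and kidney, 11 higher and 9 lower in liver, against 78.2% of all probe sets tested (35.0% higher and 43.2% lower), so the count says little about the receptors, and their sizes are given instead. In 15 of the 21 the animals of the tissues did not overlap, against 43.5% of all probe sets tested. In PB-treated mice 19 of 21 differed, 10 higher and 9 lower, against 80.2% of all (35.1% higher and 45.1% lower), and 14 did not overlap, against 46.0% of all. A lower signal in a whole tissue can come from fewer cells of a type or from less RNA per cell, and these cannot be told apart here.

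CAR and PXR were liver genes on these arrays. The Nr1i3 signal was between 258.0 and 461.8 in control livers (median 378.8), and between 1.2 and 4.3 in control kidneys. No kidney came near the signal of 50 below which the study's methods leave out a probe set, and PB kidneys stayed there too, with a median of 2.7 and a highest value of 23.0. With the kidney set to that limit of 50, Nr1i3 was at least 7.46-fold higher in control liver (adjusted p = 8.25e-19) and at least 9.25-fold higher in PB liver (adjusted p = 1.64e-14). Nr1i2 has a pair of probe sets with the same pattern. On 1425723_at control livers lay between 91.8 and 235.8 and control kidneys between 14.0 and 28.5, and on 1451807_at between 85.5 and 160.4 against 1.6 to 12.7. Liver was thus at least 3.17-fold and at least 2.56-fold higher (adjusted p = 1.49e-13 and 8.89e-13). The adjusted p values of Nr1i3 and Nr1i2 come from the limma fit of the signals with a floor of 1 and do not test the bounds at 50. Since both genes sit under 50 in all kidneys, their PB comparison was made in liver alone.

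Nr0b2, the gene of SHP, a repressor without a DNA binding domain, was also a liver gene. Its kidney signal lay around the limit of 50, with means of 53.4 in control and 48.2 in PB kidneys. Of 10 animals each, 6 and 3 reached 50. Control livers ran from 351.2 to 1613.2 with a median of 901.25, and control kidneys from 34.8 to 70.3. The log2 difference was 3.96 ± 0.23 (SE, adjusted p = 2.51e-13). Livers differed widely in it, with an SD of 403 on a mean of 904.

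The dimer partners were expressed in both tissues and were higher in liver. Rxra, the main liver RXR, had a control mean of 847.9 ± 128 (SD) in liver and 225.0 ± 26.5 in kidney on 1454773_at, a log2 difference of 1.91 ± 0.08, and the second probe set, 1425762_a_at, gave 0.93 ± 0.10. Rxrb differed less, by 0.60 ± 0.15 on the log2 scale (adjusted p = 9.82e-04), and its animals overlapped between tissues. Ppara was higher in liver on all 3 probe sets, by 0.75, 1.25 and 0.87 on the log2 scale in control mice and by 0.35, 0.97 and 0.71 in PB-treated mice. The first of these, 1439675_at, lost its call in PB-treated mice when arrays were centred on their median (0.23, adjusted p = 0.114).

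Ppargc1a and Ppard ran the other way. All 5 Ppargc1a probe sets were lower in liver than in kidney, with log2 differences from -3.10 to -2.05 in control mice and from -3.21 to -2.07 in PB-treated mice, and no liver reached any kidney. On 1434100_x_at control kidneys lay between 378.7 and 457.8 and control livers between 41.4 and 87.8. Ppard 1439797_at had a control mean of 189.4 ± 53.8 (SD) in kidney and 74.3 ± 22.6 in liver, a log2 difference of -1.36 ± 0.18 (adjusted p = 3.71e-07). The order of the group means was kidney control, kidney PB, liver control and liver PB, and the neighbours kidney PB (58.0 to 107.4) and liver control (44.8 to 115.2) overlapped. The second Ppard probe set, 1425703_at, gave signals of 9.4 or less on every array and was not tested.

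FXR and HNF4-alpha were well expressed in both tissues. Nr1h4 had a mean of 1015.7 ± 149 in control livers and 1245.3 ± 294 in control kidneys, a log2 difference of -0.27 ± 0.12 that just passed the test (adjusted p = 0.0483) and was lost with the animal as a block (adjusted p = 0.0696; 0.0120 to 0.0998 over all alternatives). In PB-treated mice the difference was 0.09 (adjusted p = 0.529). Of the 4 Hnf4a probe sets, 1427000_at and 1450447_at were lower in control liver, with log2 differences of -0.81 and -0.58, 1427001_s_at was 0.20 higher, and 1421983_s_at differed by -0.14 (adjusted p = 0.105). In PB-treated mice 1427000_at, 1450447_at and 1421983_s_at were lower in liver, at -0.89, -0.32 and -0.29, and 1427001_s_at differed by 0.02 (adjusted p = 0.738). Under quantile normalization 1427001_s_at turned to -0.17 in control mice and -0.39 in PB-treated mice, 1421983_s_at passed in control mice at -0.18 (adjusted p = 0.0420), and 1450447_at lost its call in PB-treated mice (-0.13, adjusted p = 0.289). Median centring ended the call of 1427001_s_at in control mice (0.13, adjusted p = 0.180).

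**Figure D1:**
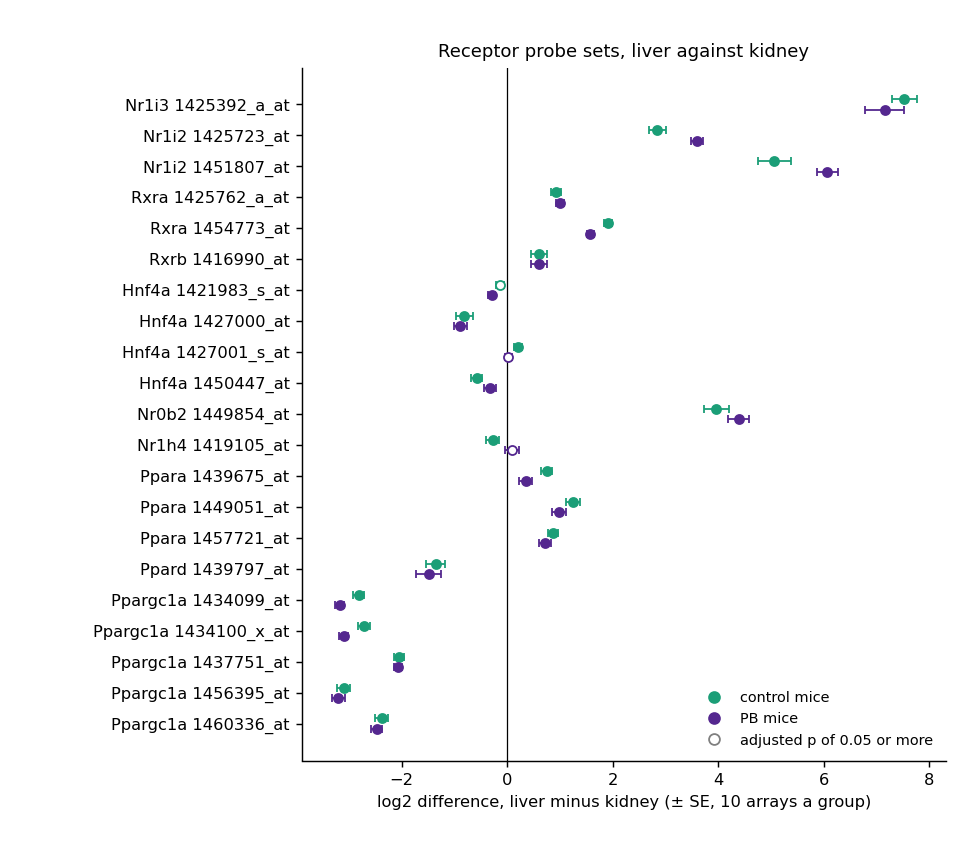
Log2 difference of MAS5 signal between liver and kidney (liver minus kidney) for each receptor probe set tested, in control and in PB mice, with bars of 1 SE and 10 arrays per group; open points have an adjusted p of 0.05 or more. Nr1i3, Nr1i2 and Nr0b2 lie far to the liver side and all 5 Ppargc1a probe sets to the kidney side; differences against kidney signals under 50 depend on the floor used and are not bounds.

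The second question was whether 28 days of PB altered the receptor mRNAs in liver. Few moved: 3 of the 21 receptor probe sets tested passed, 1 higher and 2 lower, while 12.3% of all probe sets tested did (5.88% higher and 6.43% lower), so 14.3% for the receptors is near the background. At an unadjusted p under 0.05 the count was 9. Their median log2 difference was -0.06 against -0.01 over all probe sets tested. No receptor separated PB livers from control livers without overlap, which 1.36% of all probe sets tested did. Nr1i3 was higher, and Rxra and Ppard were lower on 1 probe set each.

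CAR mRNA rose modestly. Nr1i3 ran from 258.0 to 461.8 in control livers (median 378.8) and from 388.0 to 530.9 in PB livers (median 450.5). All 10 PB livers lay above the control median, 5 lay above every control liver, and the ranges overlapped between 388.0 and 461.8. The means were 373.2 ± 64.1 and 462.6 ± 48.1 (SD), a log2 difference of 0.32 ± 0.09 (adjusted p = 0.0212). The call was lost when arrays were centred on their median (adjusted p = 0.0583), and over all alternatives the adjusted p ran from 0.0105 to 0.527. Over the alternatives that kept every array, the difference ran from 0.30 to 0.37. Its range with single arrays left out is not given. The highest p came from fitting all 40 arrays together, where kidney signals between 1.2 and 23.0 entered the estimate of the spread of Nr1i3.

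PXR mRNA did not pass the test. On 1425723_at Nr1i2 ran from 91.8 to 235.8 in control livers (median 159.65) and from 152.3 to 213.0 in PB livers (median 200.95), and 9 of 10 PB livers lay above the control median. The log2 difference was 0.34 ± 0.12 (adjusted p = 0.0734), and it passed without control animal 8 (adjusted p = 0.0229) or without PB animal 17 (adjusted p = 0.0495). On 1451807_at it was 0.25 ± 0.12 (adjusted p = 0.185). In size the difference was close to that of CAR, with a larger SE. When the PB effects of the tissues were tested against each other, 2 of 21 receptor probe sets passed, 1 higher and 1 lower in liver, against 6.21% of all probe sets tested (3.13% higher and 3.08% lower). One was Nr1i2 1425723_at (log2 0.75 ± 0.20, adjusted p = 0.0147), but its kidney means were 21.8 and 16.4, both under 50. This probe set entered the test through its liver signal alone, so no difference between tissues can be read from it.

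The dimer partner Rxra gave different answers on its probe sets. On 1454773_at control livers ran from 664.7 to 1159.8 (median 833.05) and PB livers from 620.8 to 810.5 (median 705.55). The means were 847.9 ± 128 and 709.8 ± 60.2 (SD), a log2 difference of -0.25 ± 0.07 (adjusted p = 0.0288). Over all alternatives the adjusted p ran from 0.00794 to 0.194. The call was lost without a filter on low signal (adjusted p = 0.0531), with the methods' t-test on linear signal (0.0540), and without control animal 8 (0.0510), PB animal 18 (0.0574) or PB animal 19 (0.0506). On 1425762_a_at the means were 229.1 and 236.2 (log2 0.05 ± 0.10, adjusted p = 0.768), and over the 20 livers the deviations of these probe sets from their group means had a Pearson r of -0.14. The remaining Rxra probe set, 1430497_at, stayed under 50 in every group mean. In kidney 1454773_at differed by 0.09 (adjusted p = 0.553), and the difference between the tissues, the other call of that test at -0.34 ± 0.10, passed narrowly (adjusted p = 0.0432; 0.0163 to 0.0794 over the alternatives). Rxrb differed by -0.06 in liver (adjusted p = 0.843).

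Ppard showed the largest difference of the 10 genes, and it was lower with PB in both tissues. In control livers 1439797_at ran from 44.8 to 115.2 (median 75.1) and in PB livers from 9.8 to 49.2 (median 35.7). In control kidneys it ran from 116.9 to 269.7 (median 182.35) and in PB kidneys from 58.0 to 107.4 (median 85.9). In liver 8 of 10 PB animals lay below every control, and in kidney all 10 did, which 0.161% of all probe sets tested in kidney did in either direction. Mean signals fell from 74.3 ± 22.6 to 33.3 ± 13.0 (SD) in liver and from 189.4 ± 53.8 to 85.5 ± 14.3 in kidney. The log2 differences were -1.24 ± 0.26 (adjusted p = 0.00254) and -1.11 ± 0.14 (adjusted p = 1.25e-04), and the test of a difference between the tissues gave -0.13 ± 0.31 (adjusted p = 0.867). Every PB liver was under 50 on this probe set, so its liver level with PB is close to the limit of the measurement, and with that group set to 50 it was at least 1.49-fold lower. This was the one receptor probe set past the study's own thresholds, a 1.5-fold ratio of means and a p of at most 0.001, in liver and in kidney, with limma and with either form of the methods' t-test. In liver that ratio rests on PB signals under 50. The study itself reported that no gene altered in kidney was significantly changed in liver. The reason for this difference was not tested.

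The remaining members did not pass in liver. Ppara was lower on its 3 probe sets by 0.31, 0.35 and 0.09 on the log2 scale (adjusted p = 0.159, 0.138 and 0.714), and these 3 followed each other closely over the 20 livers, with Pearson r of 0.91 to 0.95 between their deviations. Hnf4a ranged from -0.18 to 0.11 over 4 probe sets (lowest adjusted p = 0.112, for 1427001_s_at, which passed without control animal 7 at 0.0382). Nr0b2 had means of 904 ± 403 and 1064 ± 438 (SD) and a log2 difference of 0.28 ± 0.27 (adjusted p = 0.550), so a sizeable difference in either direction cannot be told from the spread. Nr1h4 had means of 1015.7 and 993.3 (log2 -0.03 ± 0.09, adjusted p = 0.869). The 5 Ppargc1a probe sets ranged from -0.21 to 0.12, with adjusted p values of at least 0.334.

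**Figure D2:**
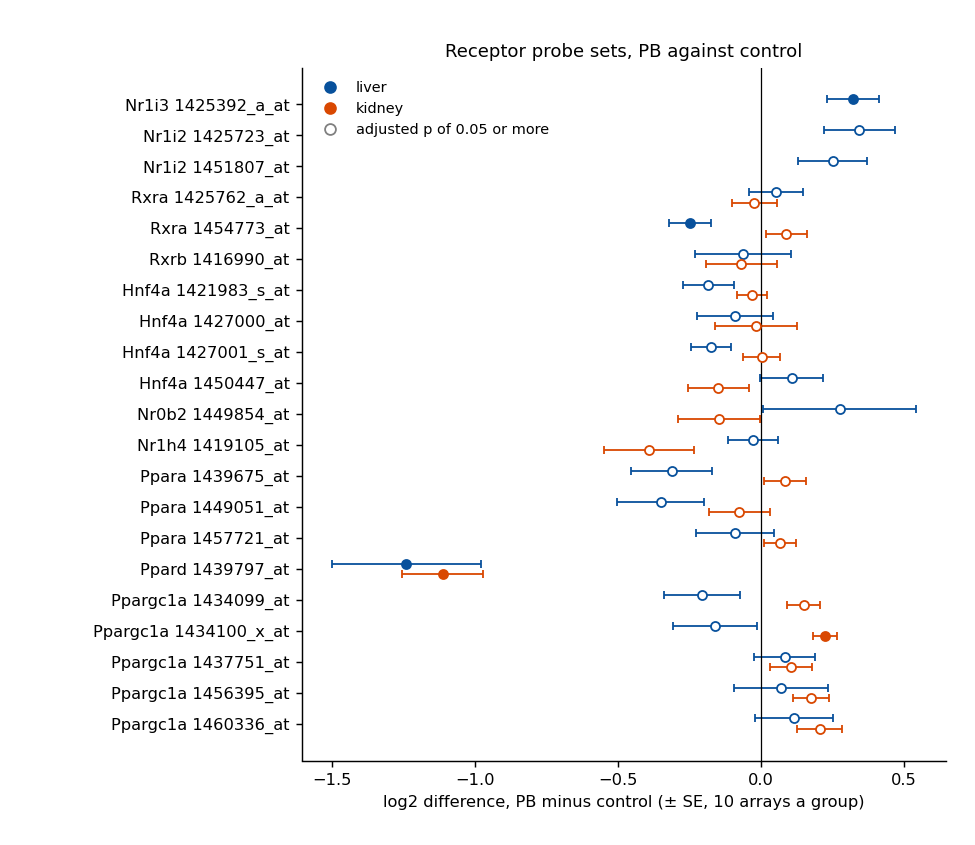
Log2 difference of MAS5 signal between PB and control (PB minus control) for each receptor probe set tested in liver and in kidney, with bars of 1 SE and 10 arrays per group; open points have an adjusted p of 0.05 or more. Ppard lies near -1.2 in both tissues, while Nr1i3 at 0.32, Rxra 1454773_at at -0.25 and, in kidney, Ppargc1a 1434100_x_at at 0.23 are the other filled points.

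In kidney 2 of the 18 receptor probe sets tested passed, 1 higher and 1 lower, against 3.26% of all probe sets tested (1.79% higher and 1.47% lower), and 6 had an unadjusted p under 0.05. The background count of 627 calls fell to 393 without control animal 8 and to 411 without PB animal 19. Those 18 cover 8 genes, since Nr1i3 and Nr1i2 were under the limit. Besides Ppard, the call was Ppargc1a on 1434100_x_at, which ran from 378.7 to 457.8 in controls (median 414.15) and from 457.4 to 515.2 with PB (median 485.85). All PB kidneys but 1 lay above every control. The means were 416.1 ± 25.0 and 486.3 ± 24.5 (SD), a log2 difference of 0.23 ± 0.04 (adjusted p = 0.00363), and the other 4 probe sets differed by 0.11 to 0.21 with adjusted p values from 0.137 to 0.470. With all 40 arrays in 1 fit the call was lost (adjusted p = 0.408; 0.00171 to 0.457 over all alternatives). Nr1h4 had the next largest difference, -0.39 ± 0.16, from 1245.3 to 960.5 in the mean, and did not pass (adjusted p = 0.186).

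PB kidneys also held more signal of fat cell markers, and brown fat is rich in Ppargc1a. All 3 fat cell markers measured, Adipoq, Fabp4 and Ucp1, were higher with PB, while Lep was under 50 and Plin1 and Cfd had no probe set with 1 symbol. Their summed signal lay between 750.2 and 1436.2 in controls and reached 6924.2 with PB (lowest 908.9), with 8 of 10 PB kidneys above every control. The PB kidneys that were not, of animals 11 and 13, had Ppargc1a signals of 457.4 and 475.4. In the 8 that were, Ppargc1a ran from 459.2 to 515.2, and the highest control was 457.8. With the Adipoq signal as a covariate Ppargc1a 1434100_x_at differed by 0.20 (adjusted p = 0.101) and Ppard by -1.31 (adjusted p = 0.00308). The share of fat in the Ppargc1a difference was not tested further.

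**Figure D3:**
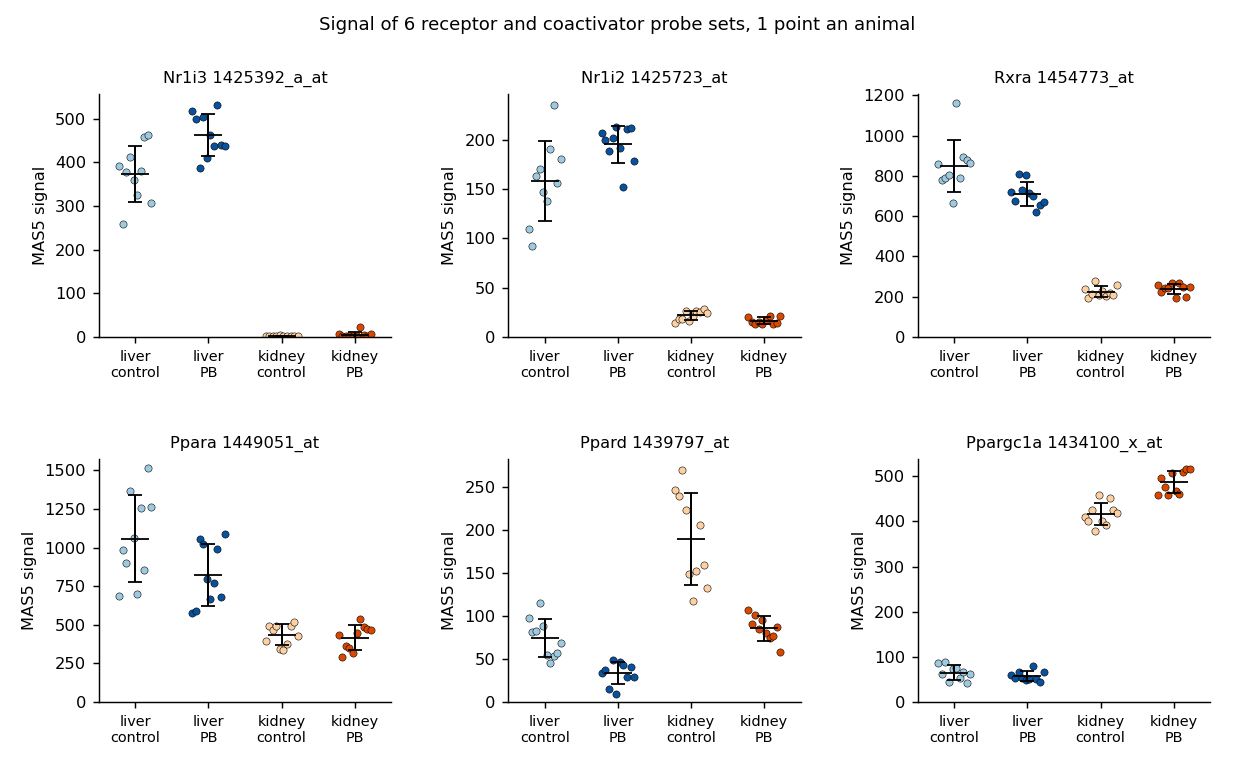
MAS5 signal of 6 probe sets in each of the 40 arrays, 1 point per animal and tissue, with a line at the mean and bars of 1 SD (n = 10 per group). The Ppard points of PB kidneys all lie below those of control kidneys (highest 107.4 against lowest 116.9), whereas the Nr1i3, Nr1i2, Rxra and Ppara points of PB and control livers overlap.

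The receptors were set beside their pathways, each gene standing by the probe set with the highest mean in the tissue. By this measure 14.2% of 9976 genes tested were called in liver (6.45% higher, 7.72% lower) and 3.74% of 10083 in kidney (2.17% higher, 1.57% lower). Of the CAR and PXR target genes, 23 of 24 were higher with PB in liver and none was lower, a list that holds genes known from such treatments. The gene not called was Cyp3a11, which also had no unadjusted p under 0.05 with limma, while Cyp3a13 and Cyp3a25 were among the 23. The median log2 difference of the list was 1.42, or 1.28 with the 4 genes under 50 in controls set to their bound, against -0.02 over all genes. Cyp2b10, the P450 most used as a CAR readout, went from a mean of 25.4 to 11482, at least 230-fold, with all 10 PB livers above all controls. Cyp2c65 and Cyp2c55 followed, from 10.8 to 1513.9 and from 271.6 to 8805. A log2 difference of 0.32 in Nr1i3 thus stood beside a change of at least 230-fold in its best known target. In kidney, where Nr1i3 stayed at 23.0 or below, 3 of 13 target genes were higher: Gsta2, a glutathione transferase (log2 0.62 ± 0.11), and the aldehyde dehydrogenases Aldh1a1 (0.45) and Aldh1a7 (0.37).

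Of the mRNAs of 26 proteins that hold, activate or repress CAR and PXR, 4 were lower in liver with PB and 1 higher. Egfr, the growth factor receptor through which PB is known to act on CAR, fell from 6558 ± 1667 to 3393 ± 1212 (SD), a log2 difference of -0.96 ± 0.19 (adjusted p = 0.00133), and 3 PB livers lay below every control. Foxa3, a pioneer factor of hepatocyte enhancers, fell by 0.71 on the log2 scale, Foxo1 by 0.26 and Smarca4, a chromatin remodelling ATPase, by 0.23. Gadd45b, a stress protein that binds CAR as a coactivator, rose from 19.9 ± 21.0 to 134.6 ± 48.0, at least 2.69-fold. In kidney 0 of 23 passed with limma, 4 had an unadjusted p under 0.05, all higher, and the methods' t-test on log2 signal called 0.

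Among 21 other nuclear receptors measured in liver, Rarb, a retinoic acid receptor, was the single call (limma adjusted p = 7.99e-04). It went from 47.1 ± 15.2 to 90.6 ± 24.5 (SD), and 8 PB livers lay above every control. With the control set to 50 it was at least 1.81-fold higher, a bound that the adjusted p does not test. In kidney 2 of 20 were called, both higher: Nr3c2, the mineralocorticoid receptor, from 44.9 to 72.7, at least 1.45-fold, and Nr1d2, the clock repressor REV-ERB beta, by 0.34 on the log2 scale. Of 16 FXR target and bile acid genes in liver, the bile acid uptake carriers Slco1b2 and Slc10a1 were higher, by 0.47 and 0.32, and Cyp7b1, an oxysterol hydroxylase, was lower by 0.46. In kidney 0 of 7 such genes passed with limma, 3 had an unadjusted p under 0.05, and the methods' t-test called 0.

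The PPAR-alpha targets that were called were lower in liver and higher in kidney. In liver 4 of 16 were lower and none higher: Angptl4, a lipase inhibitor, by 1.13 ± 0.23 on the log2 scale, Plin2, a lipid droplet protein, by 0.37, Hadha, a beta-oxidation enzyme, by 0.22, and Acot1, an acyl-CoA thioesterase, from 72.8 to 35.6, at least 1.46-fold. The list as a whole had a median log2 difference of -0.01, against -0.02 over all genes. In kidney 5 of 16 were higher and none lower, led by Cyp4a14, a fatty acid hydroxylase, from 40.3 ± 13.2 to 174.0 ± 89.7, and Acaa1b, a peroxisomal thiolase, higher in all 10 PB kidneys than in any control. Vnn1, Acot1 and Plin2 were the others. The fat cell markers given above moved with these kidneys too.

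Of 18 PGC-1alpha and fasting response genes measured in liver, a list that also holds mitochondrial genes such as Cycs, Cox4i1 and Tfam, 4 were lower and none higher with PB. Igfbp1, an insulin-repressed binding protein, fell by 2.47 ± 0.47 on the log2 scale. Lpin1, a phosphatidate phosphatase that works with PGC-1alpha, fell by 1.45 ± 0.23, and G6pc, the last enzyme of gluconeogenesis, by 0.86 ± 0.26. Irs2, an insulin receptor substrate, went from 74.1 to 34.5, at least 1.48-fold lower. The Ppargc1a probe sets themselves did not pass in liver. In kidney 0 of 18 passed with limma, 1 had an unadjusted p under 0.05, and the methods' t-test called 0. HNF4-alpha targets split evenly in liver, with 3 of 18 higher (Ces2a, Ugt2b1 and Mttp, the first also a CAR target) and 3 lower (Pklr, Apoa4 and Apom), and in kidney Mttp alone of 10 was higher.

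**Figure D4:**
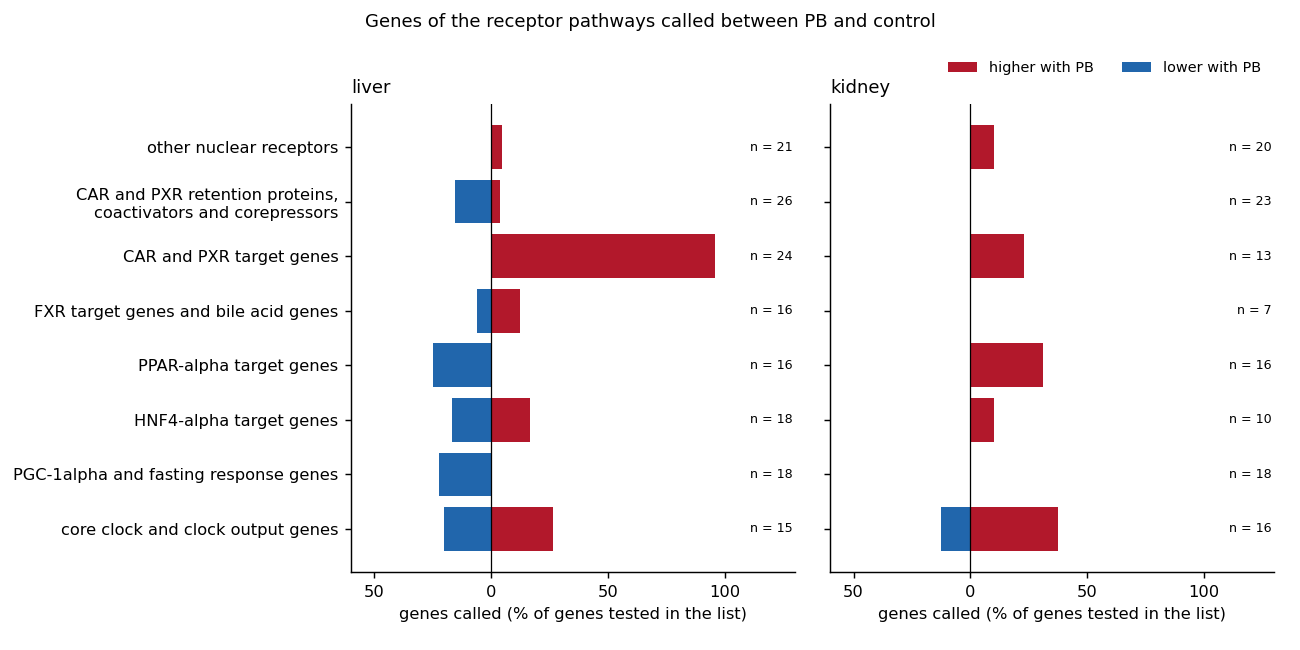
Percent of the genes tested in each list that were called higher (right of 0) or lower (left of 0) with PB, in liver and in kidney, with the number of genes tested beside each bar. The CAR and PXR target genes in liver, 23 of 24 higher, stand out, and over all genes 6.45% were called higher and 7.72% lower in liver, and 2.17% and 1.57% in kidney.

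Clock genes moved with PB in both tissues, and several of the receptors are known to cycle over the day. In liver 4 of 15 were higher (Dbp, Per2, Tef and Per3) and 3 lower (Nfil3, Arntl and Clock). In kidney 6 of 16 were higher (Dbp, Per2, Per3, Bhlhe40, Nr1d2 and Tef) and 2 lower (Npas2 and Arntl). Dbp, a direct output of the clock, went from 160.7 ± 134 to 853.3 ± 818 (SD) in liver, a log2 difference of 2.32 ± 0.51, and from 427.6 ± 223 to 1014.0 ± 354 in kidney, 1.35 ± 0.28. Control livers alone ran from 39.0 to 443.2, so animals within a group differed widely. The labels give the day on which the mice were killed but no hour.

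Ppard followed Dbp inversely among control kidneys. Of 10 relations between a called receptor and Dbp within a group, this one passed: Pearson r = -0.84 over the log2 signals of 10 animals (permutation p = 0.00351, two-sided, adjusted over the 10 relations 0.0351), and Spearman rho = -0.84 (permutation p = 0.00327, adjusted 0.0327). It was -0.89 without the pair of animals farthest from the median of Dbp. Within control livers r was -0.62 (permutation p = 0.0588, adjusted 0.190), within PB kidneys -0.58 (permutation p = 0.0759, adjusted 0.190) and within PB livers -0.11. For Nr1i3 and Rxra in liver and Ppargc1a in kidney no relation passed after adjustment. These relations were chosen after the values had been seen. Both signals also went with donor number. Kidneys of control animals 1 to 4 had Dbp from 147.1 to 278.8 and Ppard from 222.8 to 269.7. Those of control animals 5 to 10 had 402.8 to 827.0 and 116.9 to 205.7. Control livers split likewise in Dbp, at 39.0 to 67.2 against 99.4 to 443.2. Controls carry numbers 1 to 10 and PB animals 11 to 20. The labels do not say what the order stands for, and its part in the relation was not tested.

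With the log2 signal of Dbp as a covariate, a fit also added after the values had been seen, Ppard differed by -0.92 in liver (unadjusted p = 0.0165, adjusted p = 0.202) and by -0.61 in kidney (unadjusted p = 2.11e-04, adjusted p = 0.176). Nr1i3 kept its size at 0.37 (adjusted p = 0.139) and Rxra 1454773_at at -0.27 (adjusted p = 0.194). Ppara went the other way: its 3 probe sets differed by -0.75, -0.74 and -0.49 at a given Dbp level (adjusted p = 0.00363, 0.0216 and 0.0800), against -0.31, -0.35 and -0.09 without it. Over all probe sets, 566 were called in liver and 6 in kidney in these fits, against 2336 and 627 without the covariate. Dbp and PB moved together, so in these fits treatment and clock state cannot be told apart in full, and the part of the clock in the Ppard result was not tested beyond these values.

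**Figure D5:**
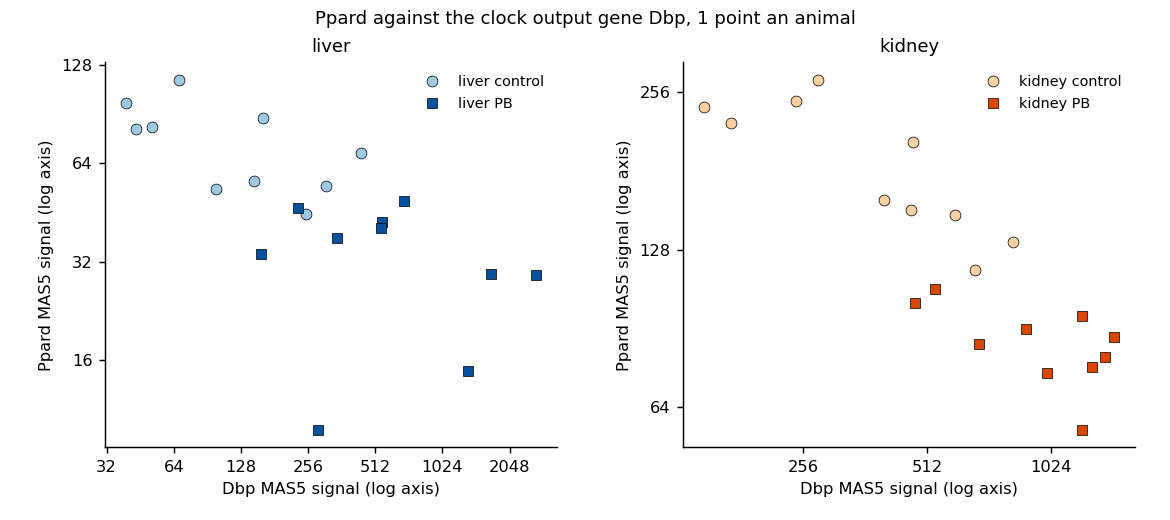
MAS5 signal of Ppard 1439797_at against that of Dbp in the same array, both on log axes, for livers and for kidneys, 1 point per animal. Ppard falls as Dbp rises among control kidneys (r = -0.84), and PB kidneys lie at 107.4 or below for Ppard over Dbp signals of 479.6 to 1456, a range that control kidneys reach up to 827.

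Markers of other liver cells were read beside these results. Of the stellate cell and fibroblast markers 5 of 10 were lower with PB, of Kupffer cell and macrophage markers 2 of 11, of lymphocyte and neutrophil markers 1 of 4 and of endothelial markers 1 of 9, and none of these was higher. Among hepatocyte markers 2 of 10, Ahsg and Fgb, were lower. The summed signal of the hepatocyte list was 159710 to 209700 in control livers and 145580 to 209800 in PB livers. The part of such shifts in the receptor values was not tested.

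The genes most like CAR across the 20 livers, by the correlation of log2 deviations from the group mean, were Znrd1as (Pearson r = 0.82), Gpx4 (0.81) and Sdc2 (0.78). For PXR they were Zcchc24 (0.87), Gadd45a (0.81) and Gna14 (0.81). These are the top 3 of all named probe sets tested in liver, the points share arrays and their scaling, and the values describe these 20 livers.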

How the data were processed

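Per the labels, total RNA was labelled and hybridised to Affymetrix Mouse430_2 arrays. The authors deposited MAS5 intensity values on a linear scale, scaled to a trimmed mean of 150; the submitters' notes list the tools GCOS and MAS5, with no version. In the files the trimmed means lay between 148.97 and 149.32 and the medians between 30.0 and 37.2, over 45037 probe sets and 40 arrays. Animals are the replicates, and their number limits the precision. The annotation gives 34945 probe sets 1 symbol, 932 several and 9160 none; symbols were updated by Entrez number through a RefSeq table (GRCm38.p6; 34741 matched).

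Probe sets were tested where the mean reached 50 in a group compared. Signals under 1 were set to 1, taken to log2 and fitted with limma (lmFit, eBayes with a trend; two-sided; Benjamini-Hochberg over all probe sets tested; called under 0.05). Liver and kidney were also compared, and the difference of the PB effects was an interaction over 40 arrays. Named were all probe sets of the 10 genes, the 3 largest called changes of each list in liver (other called genes were named after their values were seen), and the 3 genes most like Nr1i3 and Nr1i2. The members and lists were chosen with earlier results of these data known. Permutation tests of correlations used 100000 resamples.

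Liver and kidney with 1 donor number came from 1 animal; over 15416 probe sets their deviations from the group means correlated with a median r of 0.0755 (-0.0740 to 0.211 over 20 pairs). Alternatives tried were a mean of 100 or no filter, a floor of 20, an offset of 16, quantile normalization, median centring, robust eBayes, the methods' t-test, all 40 arrays in 1 fit, the animal as a block, each array left out, and Dbp or Adipoq as a covariate. The fits were tested on simulated data. Scanner files, detection calls and the methylation experiments were not analysed here. R 4.3.3, limma 3.58.1, Python 3.11.15, pandas 2.3.3, NumPy 2.4.6, SciPy 1.17.1 and matplotlib 3.10.9 ran the steps.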

Additional observations from a re-analysis of the deposited data

Results flagged for a closer look

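In 7 of the 78 groups of 10 animals examined, the highest or lowest animal stood apart from its group by Dixon's criterion; chance alone gives about 1 in 20. Rxra 1454773_at was 1159.8 in the liver of control animal 6, with the next control liver at 894.7. This animal raises both the mean and the spread of the control group in which Rxra was called lower with PB. Without that array the liver call was kept, and the limma difference between the tissues was -0.28 and did not pass (adjusted p = 0.0638). Nr1i2 1425723_at was 152.3 in the liver of PB animal 17, the array without which PXR passed the test. Ppargc1a 1456395_at was 42.1 in the liver of PB animal 16. In PB kidneys, Hnf4a 1427001_s_at was 5525.2 in animal 14, Hnf4a 1450447_at was 105.1 in animal 15, Ppara 1457721_at was 297.7 in animal 12 and Rxrb 1416990_at was 369.2 in animal 11. No animal appears more than once among the 7.

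The test of a difference in the PB effect between liver and kidney passed for 2 of the 21 receptor probe sets tested, against 6.21% of all probe sets tested. Nr1i2 1425723_at gave a log2 difference of the effects of 0.75, but its kidney signals were under 50, so no difference between tissues can be read from it. Rxra 1454773_at gave -0.34.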

How the results depend on the processing

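Against 3 receptor probe sets called in liver, 2 to 4 were called without single arrays, and in kidney the count stayed at 2 of 18. In the kidney comparison 1 was called with all 40 arrays in 1 fit and 1 with Adipoq as a covariate (Ppard both times), and 0 with Dbp as a covariate (limma; 2 had an unadjusted p under 0.05). With Dbp as a covariate 2 were called in liver, both of Ppara and neither among the 3 called without it. For the difference of the effects 1 was called without a filter and 1 with quantile normalization, both times Nr1i2 1425723_at, and 1 to 3 without single arrays. The tissue comparisons gave 19 to 20 calls in control mice and 19 in PB mice without single arrays. Hnf4a 1427001_s_at reversed under quantile normalization, to -0.1672 in control and -0.3935 in PB mice; the cause was not tested. With the animal as a replicate block the tissue comparisons gave 19 calls in control mice, losing Nr1h4, and 19 in PB mice, and the difference of the effects gave 3 with a fixed block, adding Ppara 1439675_at (-0.40, adjusted p = 0.0355), and 2 with a random block. Over all probe sets, median centring gave 837 of 2276 calls higher in liver, against 1116 of 2336, 350 of 484 in kidney, against 345 of 627, and 437 of 1352 for the difference of the effects, against 684 of 1357. In kidney 335 were called without a filter, 200 with all 40 arrays in 1 fit and 393 to 852 without single arrays, against 627. With a mean of at least 100 required, Ppard was not tested in liver; under the other settings it kept its calls in both tissues, except with the Dbp covariate. In liver, 566 probe sets were called with that covariate, against 2336, and in kidney 6, and 167 with Adipoq, against 627. Signals under 50 limit what can be said of Nr1i3 and Nr1i2 in kidney and of Ppard in PB livers.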
